A study of Mus musculus with 8 samples.

Results

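The genes described are Nfe2l2, which encodes the transcription factor NRF2, its repressor gene Keap1, and 7 antioxidant genes that NRF2 is known to activate, Hmox1, Nqo1, Gclc, Gclm, Txnrd1, Srxn1 and Slc7a11. They were picked by gene symbol, and 8 of the 9 symbols were found among the 26873 features of the deposited table. Srxn1 was not found in the table's gene name column, and a row named AABR07054319.1 that carries Srxn1 in a second symbol column is given separately and not counted with the 8. The members were chosen with the differences between arms and days in these same libraries known, so their levels, ratios and fold changes are a description and carry no test.

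The libraries hold messenger RNA of wild-type (WT) bone marrow mesenchymal stem cells, labelled as a cell line, in osteogenic differentiation, which all groups share. All cells received extracts of PCL scaffolds, made by immersing scaffolds in DMEM with 10% fetal bovine serum for 72 h at 37 °C at 1.25 cm2 per ml. The 4 arms are PCL-O (the blank, assigned by elimination), PCL-S (S7), PCL-E (E7) and PCL-SE (S7 with E7), each with 1 library on day 3 and 1 on day 7; S7 and E7 are peptides according to the series title. The labels give n = 3 RNA samples at extraction, but each arm has a single column on each day in the table, and the sources used here do not say if RNA was pooled. PCL-S and PCL-SE are called the arms with S7, and PCL-O and PCL-E the arms without it. A mean ± SD over such a pair of arms (n = 2 libraries) measures how alike the arms were, not how alike repeated cultures were.

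Library totals ran from 32950326 to 41754124 counts, and 15942 genes had enough counts to be tested. Of the features, 22050 carry rat Ensembl identifiers and 4823 are new genes, while Mus musculus is the organism in the labels and mm10 their build, so the symbols are those of the rat identifiers and no coordinate of the files is used. The 8 mesenchymal stromal markers listed, Thy1 and Eng among them, summed to between 3312 and 6120 CPM (counts scaled to the library total), lowest in the S7 arms of day 7. Itgb1 was the largest part, at 1718 to 4301 CPM, and was also lowest in those arms. Cd44 and Pdgfra were highest in those arms, and Nt5e and Lepr reached at most 17.4 and 4.32 CPM in any library. Of 6 osteoblast lineage markers, Sp7, Bglap and Ibsp were below 1 CPM in every library, and the sum, nearly all Col1a1, on day 7 was 5691 CPM with S7 alone and 5310 with S7 and E7, against 15381 to 32424 in the other libraries. All 8 macrophage and leukocyte markers were below 1 CPM everywhere, with sums of 0.537 to 1.06 CPM. The adipocyte and erythroid sums were at most 0.323 and 0.533 CPM. The endothelial sum was 3.25 to 14.3 CPM, nearly all Tek (3.25 to 14.1 CPM), with Kdr at most 0.244 CPM and Cdh5 at 0.

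NRF2 is a basic leucine zipper factor that is made continuously and, in resting cells, bound by KEAP1, the adaptor of a CUL3 ubiquitin ligase that sends it to the proteasome. Oxidants and electrophiles modify cysteines of KEAP1, after which NRF2 accumulates, pairs with a small MAF protein and binds antioxidant response elements. NRF2 is therefore controlled largely at the protein level, which transcript counts do not measure. Its targets encode enzymes that make and recycle glutathione and thioredoxin, reduce quinones, degrade haem and supply NADPH; in bone marrow stromal cells such enzymes are known for limiting oxidative damage.

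The core of the antioxidant response element, TGACNNNGC, was searched on both strands of the promoter windows that RefSeq gives for the mouse genome GRCm38.p6 (250 bases before to 50 after a gene's start), matched by symbol. Of the 9 genes listed, 7 had a window, all but Hmox1 and Gclc, and 4 genes held a match in at least 1 window. Over all 27025 genes with a window, 14.0% did, and 12.4% of all 32851 windows held one. Of the members in the table with a match, the windows are shown for the factor's own gene and for 2 of its targets, with the matched letters in capitals and each sequence 5′ to 3′ along the gene. They lie at chr2:75704614-75704913 on the minus strand (Nfe2l2, match starting 240 bases upstream), at chr3:122245307-122245606 on the plus strand (Gclm, 134 bases upstream) and at chr10:82858956-82859255 on the plus strand (Txnrd1, window 2 of 3, 92 bases upstream). The matches of Gclm and Txnrd1 are on the opposite strand, so their capitals read as the reverse complement of the motif.
Nfe2l2: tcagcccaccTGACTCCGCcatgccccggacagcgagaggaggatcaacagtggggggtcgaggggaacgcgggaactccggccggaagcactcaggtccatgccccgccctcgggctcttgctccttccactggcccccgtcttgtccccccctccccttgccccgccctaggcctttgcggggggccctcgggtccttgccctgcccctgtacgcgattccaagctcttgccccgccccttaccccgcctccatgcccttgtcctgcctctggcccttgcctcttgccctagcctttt
Gclm: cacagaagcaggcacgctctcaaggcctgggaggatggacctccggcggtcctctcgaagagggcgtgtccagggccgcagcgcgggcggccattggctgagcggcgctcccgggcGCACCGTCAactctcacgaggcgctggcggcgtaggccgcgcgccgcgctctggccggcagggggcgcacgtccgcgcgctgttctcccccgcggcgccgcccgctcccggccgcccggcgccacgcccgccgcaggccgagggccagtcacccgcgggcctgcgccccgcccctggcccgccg
Txnrd1: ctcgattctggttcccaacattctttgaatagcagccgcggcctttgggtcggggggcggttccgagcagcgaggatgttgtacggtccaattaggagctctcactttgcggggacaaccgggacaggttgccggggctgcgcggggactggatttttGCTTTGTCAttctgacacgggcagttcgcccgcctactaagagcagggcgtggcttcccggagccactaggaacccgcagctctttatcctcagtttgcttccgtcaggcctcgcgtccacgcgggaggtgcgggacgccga
The window of Srxn1 held its match 28 bases after the start, and those of Keap1, Nqo1 and Slc7a11 held none of these letters. The motif of AP-1, TGANTCA, which resembles the element, was in 7.81% of all windows and, among these genes, in that of Srxn1 alone, where it did not overlap the match. Antioxidant response elements with other letters than TGACNNNGC, or outside these windows, were not searched for.

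Nfe2l2 differed little between arms on day 3 and was highest with S7 on day 7. On day 3 its level was 178 CPM in PCL-O, 192 in PCL-S, 185 in PCL-E and 198 in PCL-SE. On day 7 it was 194 CPM in PCL-O, 377 in PCL-S, 247 in PCL-E and 375 in PCL-SE. The arms with S7 were above those without it on both days, at 195 ± 4.14 against 182 ± 5.27 CPM on day 3 and at 376 ± 1.00 against 221 ± 37.1 CPM on day 7 (mean ± SD, n = 2). A fit over all 8 libraries, with terms for S7, day, their interaction and E7, gave a log2 fold change of 0.12 ± 0.09 (SE) for S7 on day 3 and 0.55 ± 0.09 on day 7.

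Keap1 did not follow S7 on day 3. Its levels were 36.7 CPM in PCL-O, 37.1 in PCL-S, 36.4 in PCL-E and 34.0 in PCL-SE, and the arms with and without S7 overlapped. On day 7 the levels were 41.4 CPM in PCL-O, 77.1 in PCL-S, 40.8 in PCL-E and 69.8 in PCL-SE. The repressor gene was thus higher in both S7 arms on day 7, alongside the factor's gene, with a log2 fold change of 0.61 ± 0.07 (SE). Between PCL-E and PCL-O on day 7 the log2 ratio was 0.25 for Nfe2l2 and -0.11 for Keap1, from 1 library on each side.

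**Figure D1:**
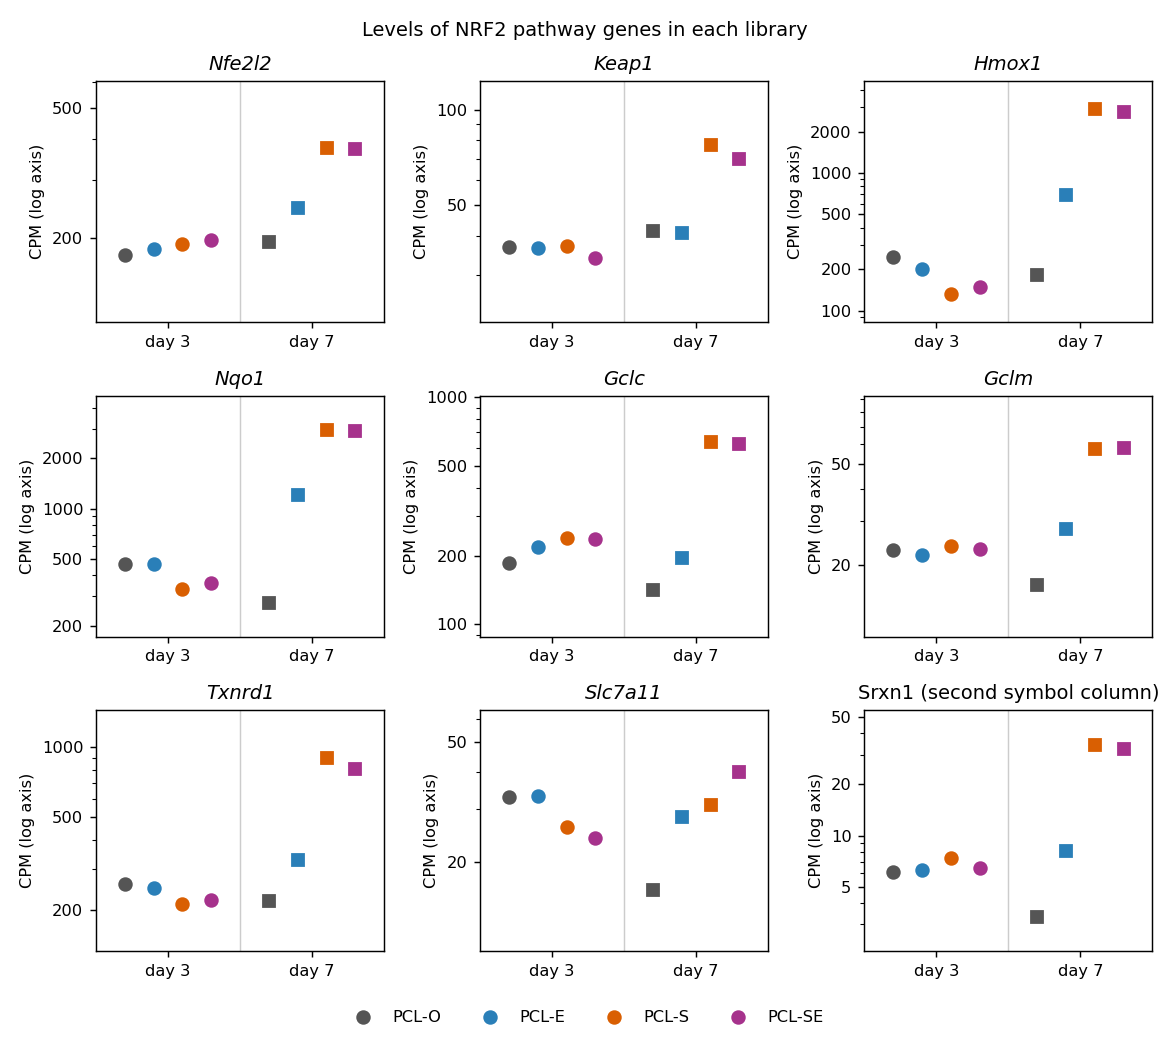
CPM of each gene in each library on a log axis, 1 point per library, with day 3 on the left and day 7 on the right of each panel and colours for the 4 scaffold extracts. On day 7 PCL-S and PCL-SE lie above PCL-O and PCL-E in every panel, whereas on day 3 Hmox1, Nqo1, Txnrd1 and Slc7a11 lie lower in PCL-S and PCL-SE.

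Hmox1 and Nqo1 had the widest ranges of the 8 genes, 22.0-fold and 10.8-fold between their lowest and highest libraries. Hmox1 encodes haem oxygenase 1, which breaks haem down to biliverdin, carbon monoxide and iron. Its level on day 3 was 245 CPM in PCL-O, 132 in PCL-S, 201 in PCL-E and 149 in PCL-SE. On day 7 it was 182 CPM in PCL-O, 2907 in PCL-S, 687 in PCL-E and 2767 in PCL-SE. The order of the arms was therefore turned between the days: both S7 arms were the lowest on day 3 (141 ± 11.9 against 223 ± 31.2 CPM) and the highest on day 7 (2837 ± 99.2 against 434 ± 357 CPM). The log2 fold change for S7 was -0.68 ± 0.46 (SE) on day 3 and 2.62 ± 0.49 on day 7. In these bulk libraries, a change in the make-up of the cells and a change of RNA per cell cannot be told apart.

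Nqo1 encodes a quinone reductase that uses NADPH to reduce quinones by a pair of electrons at once. It stood at 469 CPM in PCL-O, 334 in PCL-S, 465 in PCL-E and 358 in PCL-SE on day 3. On day 7 it stood at 275 CPM in PCL-O, 2969 in PCL-S, 1203 in PCL-E and 2904 in PCL-SE. PCL-O and PCL-E were nearly equal on day 3, and on day 7 PCL-E was well above PCL-O but below both S7 arms. The log2 fold change for S7 was -0.43 ± 0.48 on day 3 and 1.95 ± 0.50 on day 7.

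For both genes the S7 difference on day 7 depended on which arm without S7 it was set against. Without PCL-O day 7 the Hmox1 value was 1.83 (3.56-fold), and without PCL-E day 7 it was 3.73 (13.3-fold). For Nqo1 the same omissions gave 1.11 (2.17-fold) and 3.14 (8.84-fold). On day 3, leaving out PCL-O gave fitted values of -0.16 for Hmox1 and -0.03 for Nqo1, and leaving out PCL-E gave -1.09 and -0.74. These fits kept the E7 term, which both days share, so the day 3 values are not ratios to the remaining arm. The day 3 log2 ratios to PCL-O were -0.87 in PCL-S and -0.71 in PCL-SE for Hmox1, and -0.48 and -0.39 for Nqo1. In CPM, both S7 arms were also below PCL-E on day 3 for both genes.

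Gclc and Gclm encode the catalytic and the modifier subunit of glutamate-cysteine ligase, the first enzyme of glutathione synthesis, and both were highest with S7 on day 7. Gclc was at 186 CPM in PCL-O, 239 in PCL-S, 219 in PCL-E and 239 in PCL-SE on day 3. On day 7 Gclc was at 141 CPM in PCL-O, 635 in PCL-S, 196 in PCL-E and 620 in PCL-SE. Unlike Hmox1 and Nqo1, Gclc was also higher in the S7 arms on day 3 (239 ± 0.108 against 203 ± 23.3 CPM), and its log2 fold change went from 0.26 ± 0.12 on day 3 to 1.69 ± 0.12 on day 7.

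Gclm stood between 22.0 and 23.9 CPM in all 4 libraries of day 3, a log2 fold change for S7 of 0.08 ± 0.18. On day 7 it stood at 16.8 CPM in PCL-O, 57.5 in PCL-S, 27.9 in PCL-E and 58.2 in PCL-SE, a log2 fold change of 1.16 ± 0.18. Per transcript length the catalytic subunit gene was the more abundant: in PCL-O on day 3 the deposited FPKM (fragments scaled by length and library total) was 57.9 for Gclc and 14.7 for Gclm. In that library Nqo1 had the highest FPKM of the 8 genes, 281, followed by Hmox1 at 148, Nfe2l2 at 72.9 and Txnrd1 at 71.8, with Keap1 at 11.0 and Slc7a11 at 3.50.

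Txnrd1 encodes the cytosolic thioredoxin reductase, which keeps thioredoxin reduced with NADPH. It was at 259 CPM in PCL-O, 213 in PCL-S, 250 in PCL-E and 221 in PCL-SE on day 3. On day 7 it was at 219 CPM in PCL-O, 901 in PCL-S, 329 in PCL-E and 811 in PCL-SE. The S7 arms were slightly lower on day 3 and far higher on day 7 without overlap, with log2 fold changes of -0.22 ± 0.16 and 1.44 ± 0.16. The row carrying the second symbol Srxn1, the gene of the sulfiredoxin that repairs over-oxidised peroxiredoxins, was at 6.14 to 7.39 CPM in the 4 libraries of day 3. On day 7 that row was at 3.34 CPM in PCL-O, 34.2 in PCL-S, 8.10 in PCL-E and 32.5 in PCL-SE. It had a log2 fold change for S7 of 2.36 ± 0.32 on day 7, and its exact 95% binomial interval reached at most 20.5% from the value, against at most 8.84% for the 8 genes (counting error only).

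Slc7a11 encodes the light chain of the cystine and glutamate exchanger that brings in cystine for glutathione, and it varied less than the enzyme genes. On day 3 it was at 32.9 CPM in PCL-O, 26.1 in PCL-S, 33.1 in PCL-E and 24.2 in PCL-SE. On day 7 it was at 16.2 CPM in PCL-O, 31.1 in PCL-S, 28.2 in PCL-E and 40.0 in PCL-SE. PCL-O on day 7 was the lowest library, and PCL-E lay close to PCL-S there. The log2 fold change for S7 was -0.37 ± 0.19 on day 3 and 0.47 ± 0.19 on day 7, and the latter was 0.19 without PCL-O day 7 and 0.82 without PCL-E day 7. Slc3a2, its heavy chain gene, is named after its values were seen: it was at 481 ± 3.93 CPM with S7 against 250 ± 49.7 without on day 7, a log2 fold change of 0.73 ± 0.11 (edgeR quasi-likelihood test, Benjamini-Hochberg adjusted p = 0.00201).

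Set against PCL-O of the same day, 5 of the 8 genes were 2-fold or more higher in PCL-S on day 7, namely Hmox1, Nqo1, Gclc, Gclm and Txnrd1, and none was lower; 13.6% of all genes tested were that far apart, 5.28% higher and 8.31% lower. The same 5 were that much higher in PCL-SE, where 12.6% of all genes were 2-fold or more apart, 4.79% higher and 7.82% lower. In PCL-E on day 7 Hmox1 and Nqo1 were 2-fold or more higher, with 1.59% of all genes that far apart, 0.715% higher and 0.878% lower. On day 3, 0 of the 8 genes were 2-fold or more apart from PCL-O in any of the 3 arms, where 4.58% of all genes were that far apart in PCL-S, 0.37% in PCL-E and 4.58% in PCL-SE. The 8 genes had a median log2 ratio on day 7 of 1.59 in PCL-S, 0.54 in PCL-E and 1.51 in PCL-SE, and that of all genes was between -0.01 and 0. In CPM, both S7 arms were above both other arms on day 7 for all 8 genes, as for 47.6% of all genes tested. They were below both on day 3 and above both on day 7 for Hmox1, Nqo1, Txnrd1 and Slc7a11, as for 12.4% of all genes. The ratios and fold changes use TMM scaling, not library totals. By it, Slc7a11 on day 7 lay higher in PCL-E than in PCL-S (log2 ratios to PCL-O of 0.64 and 0.61). Because the members were chosen on such differences, nothing is read from these counts, and the 3 ratios share the PCL-O library.

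**Figure D2:**
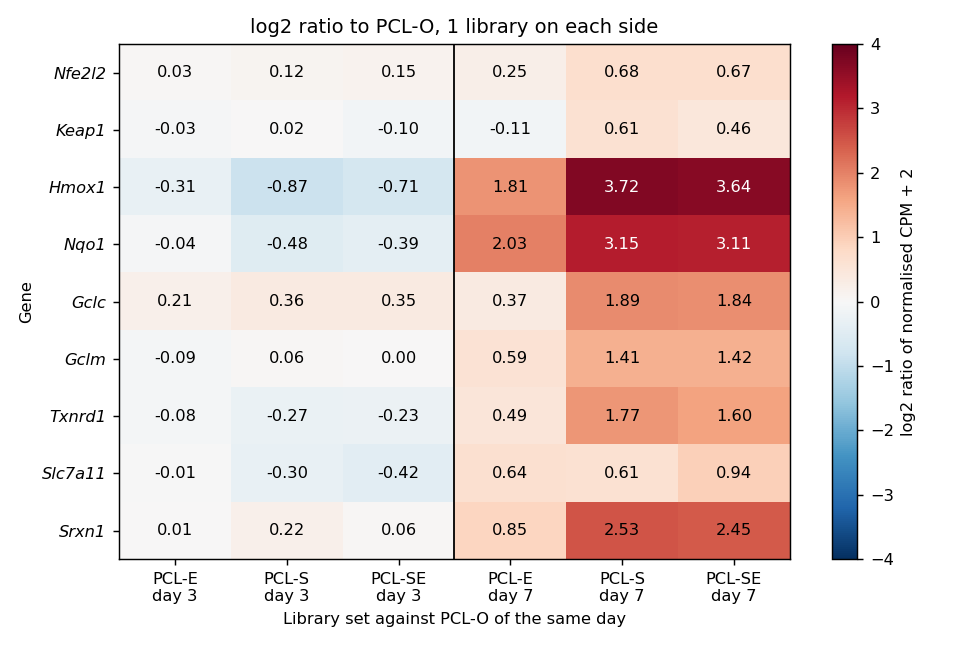
Log2 ratio of each gene to PCL-O of the same day, as number and colour, for the 3 other extracts on day 3 and day 7, with 1 library on each side and 2 added to the normalised CPM. The day 7 columns of PCL-S and PCL-SE are positive throughout, up to 3.72 for Hmox1, and PCL-E on day 7 reaches 2.03 for Nqo1.

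Between the days the genes moved differently in the 4 arms. From day 3 to day 7, Hmox1, Nqo1, Gclc and Txnrd1 were 2-fold or more higher in PCL-S, as were 3.68% of all genes, and in PCL-SE, as were 3.26%. Hmox1 and Nqo1 were so in PCL-E, as were 0.79% of all genes, and 0 of the 8 genes were 2-fold or more apart in PCL-O, where 1.61% of all genes were. In PCL-O the median log2 ratio of the 8 genes was -0.44, with Slc7a11 the lowest at -0.97, so that Nqo1, Gclc, Gclm and Slc7a11 had their lowest level of all 8 libraries in PCL-O on day 7. With S7 the fitted log2 change from day 3 to day 7 was 4.04 ± 0.51 (SE) for Hmox1, 2.79 ± 0.51 for Nqo1, 1.68 ± 0.16 for Txnrd1 and 0.17 ± 0.19 for Slc7a11. The difference of the S7 effect between the days was 3.30 ± 0.67 for Hmox1, 2.38 ± 0.69 for Nqo1, 1.65 ± 0.22 for Txnrd1, 1.43 ± 0.17 for Gclc, 1.09 ± 0.25 for Gclm, 0.84 ± 0.27 for Slc7a11, 0.64 ± 0.11 for Keap1 and 0.43 ± 0.13 for Nfe2l2. For Hmox1 this difference was 2.48 without PCL-O day 7 and 4.38 without PCL-E day 7, and for Nqo1 it was 1.53 and 3.56. With TMM scaling the change of Slc7a11 with S7 took both signs, with log2 ratios of -0.05 in PCL-S and 0.39 in PCL-SE. With total-count scaling, in which its CPM are given, the ratios were 0.23 and 0.68. Without S7 the log2 change of Slc7a11 from day 3 to day 7 was -0.67 ± 0.19, where PCL-O and PCL-E both lay below their day 3 levels.

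On day 7 most of the genes were higher in PCL-E than in PCL-O, whereas PCL-SE and PCL-S lay close together. PCL-E against PCL-O on day 7 had log2 ratios of 2.03 for Nqo1, 1.81 for Hmox1, 0.64 for Slc7a11, 0.59 for Gclm, 0.49 for Txnrd1 and 0.37 for Gclc. PCL-SE against PCL-S on the same day had ratios between -0.16 for Txnrd1 and 0.33 for Slc7a11, and 0 of the 8 genes were 2-fold apart (0.326% of all genes). The ratio with S7 less the ratio without it was -2.06 for Nqo1 and -1.89 for Hmox1, past 1 log2 unit lower as for 1.15% of all genes. It was -0.65 for Txnrd1, -0.58 for Gclm, -0.41 for Gclc, -0.31 for Slc7a11, -0.26 for Nfe2l2 and -0.04 for Keap1, so all 8 values were below 0, with a median of -0.50. On day 3 the median was 0.02, 4 of the 8 values were below 0, and 0 were past 1 log2 unit lower, as were 0.257% of all genes.

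Each of these ratios has 1 library on a side and no test, and all 4 libraries of day 7 enter the difference of ratios. Averaged over both days and both S7 states, the E7 term called 0 of 15942 genes (0%) by edgeR's quasi-likelihood test at a Benjamini-Hochberg adjusted p under 0.05, where 589 had an unadjusted p under 0.05 and DESeq2 called 1.

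**Figure D3:**
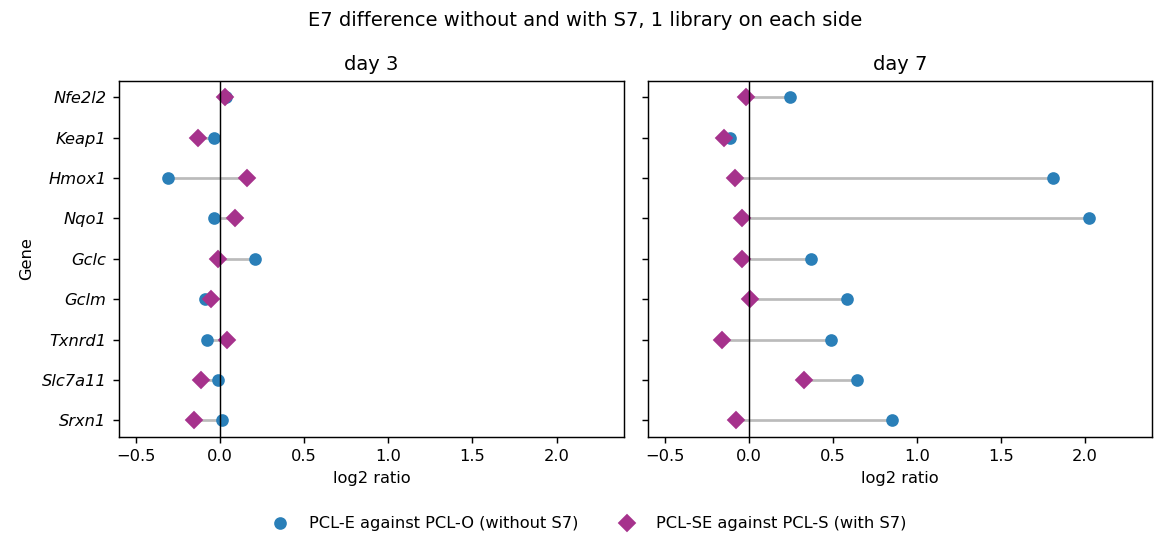
Log2 ratio of the arm with E7 to the matching arm without it, for each gene on day 3 and day 7; circles compare PCL-E with PCL-O, diamonds PCL-SE with PCL-S, and a line joins both values of a gene. On day 7 the circles of Nqo1 and Hmox1 lie at 2.03 and 1.81 while their diamonds lie close to 0.

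Other genes of the pathway came from 6 lists of KEAP1 and NRF2 machinery and known NRF2 targets, 63 found in the table and 62 tested, drawn up with earlier results of these libraries known and so not independent evidence of a direction. For S7 on day 7, 39 of the 62 rose and 9 fell, in a contrast that called 51% of all genes, 24.9% rising and 26.2% falling (edgeR quasi-likelihood test, Benjamini-Hochberg adjusted p under 0.05). Their median log2 fold change was 0.72, against -0.03 for all genes. For S7 on day 3, 8 rose and 5 fell, where 14% of all genes were called, 7.1% rising and 6.87% falling, and the median was 0.10. The number called on day 7 was 32 without PCL-S day 7, when the calls of Maff, Mafg, Nfe2l1, Abcc1, Abcc2, Abcc3, Idh1, Slc40a1, Aldh1a1 and Ugt1a7c were among those lost. That of day 3 was 2 without PCL-O or without PCL-S of that day, when Mgst2 and Gstm1 remained, 3 without PCL-E and 4 without PCL-SE of that day, and 23 and 22 without PCL-O and PCL-E of day 7. Scaling by total counts in place of TMM moved the median of all genes by 0.22 for S7 on day 7 and turned the split over all genes from 3965 rising and 4172 falling to 5642 and 3010, with 43 rising and 5 falling in the list.

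Of 15 genes of the machinery around KEAP1 and NRF2, 5 rose and 4 fell with S7 on day 7. In that contrast 24.9% of all genes rose and 26.2% fell. The median log2 fold change was -0.02 for the 15 and -0.03 for all genes. Sqstm1, whose product p62 draws KEAP1 into autophagy, stood at 334 CPM in PCL-O, 1577 in PCL-S, 505 in PCL-E and 1529 in PCL-SE, and rose by 1.68 ± 0.15 log2 units (adjusted p = 0.000297, edgeR). Bach1, which competes with NRF2 for its elements and represses Hmox1, rose by 0.69 ± 0.10 (45.7 ± 0.103 against 24.1 ± 1.26 CPM, adjusted p = 0.00198, edgeR) and had also risen on day 3 (0.49 ± 0.11, adjusted p = 0.0283, edgeR). The day 3 call of Bach1 was lost when any 1 library of day 3 was left out (log2 values of 0.38 to 0.60). Both the factor's gene and this competitor were therefore higher with S7 on day 7.

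Among the small MAF partners, Maff rose by 1.06 ± 0.29 log2 units and Mafg by 0.31 ± 0.09, while Mafk fell by 0.49 ± 0.08 on day 7 and by 0.60 ± 0.08 on day 3. The day 3 call of Mafk was lost when any 1 library of day 3 was left out (-0.65 to -0.55). Without PCL-S day 7 the log2 value of Maff was 0.78. Rbx1, the RING subunit of the CUL3 ligase, rose by 0.74 ± 0.09, and Cul3 had a log2 value of -0.09 ± 0.08. Bach2, a relative of Bach1, was low throughout, at 0.240 ± 0.0383 CPM with S7 against 2.74 ± 0.418 without on day 7, and fell on both days. Nfe2l3 was at 0.0267 CPM with S7, below the level of 3 counts, against 1.03 ± 0.436 without, and it was called lower. Nfe2l1, the related factor that controls proteasome genes, fell by 0.40 ± 0.07 on day 3, a call lost when any 1 library of that day was left out. On day 7 its call (-0.24 ± 0.07) was lost with total-count scaling (-0.02), where the CPM of both groups overlapped. Btrc, Gsk3b, Dpp3, Palb2 and Amer1 were not called on either day.

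Of 16 genes of glutathione use and export, 10 rose and 3 fell with S7 on day 7, as did 24.9% and 26.2% of all genes. Gstp1, a glutathione transferase gene, was at 875 ± 58.9 CPM with S7 against 162 ± 62.6 without (log2 2.24 ± 0.20, adjusted p = 0.000323, edgeR) and at 146 ± 3.47 against 146 ± 6.04 CPM on day 3. Mgst2, the gene of a microsomal transferase, rose on both days, by 1.33 ± 0.14 log2 units on day 3 and by 2.22 ± 0.14 on day 7. Abcc4, an export pump gene, rose by 0.91 ± 0.17 and 1.81 ± 0.17 on those days, and Gstm1 by 0.85 ± 0.09 and 1.15 ± 0.09. The day 3 call of Abcc4 was lost without PCL-O, PCL-S or PCL-E of that day. Those that fell on day 7 were Gstm2 (-0.63 ± 0.11), Abcc3 (-0.56 ± 0.14) and Abcc1 (-0.28 ± 0.09), of which Abcc1 and Abcc3 were not called with total-count scaling. Abcc2 was called higher at 0.312 against 0.0152 CPM, a handful of counts, and was not called by DESeq2.

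In the thioredoxin group, Txn1, which encodes thioredoxin, rose by 1.62 ± 0.10 log2 units on day 7, and the peroxiredoxin genes Prdx1 and Prdx6 rose by 1.12 ± 0.15 and 0.86 ± 0.17. Txnip, whose product binds and inhibits thioredoxin, went the other way. It was at 144 ± 4.70 CPM with S7 against 82.6 ± 4.02 without on day 3 and at 37.0 ± 3.20 against 74.5 ± 23.8 on day 7. It rose by 0.82 ± 0.20 on day 3 (adjusted p = 0.0372, edgeR) and fell by 1.23 ± 0.20 on day 7 (adjusted p = 0.00274, edgeR), and the difference between the days was called too. The day 3 call of Txnip was lost when any 1 library of day 3 was left out (0.64 to 1.01).

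Of 5 genes of NADPH supply, 4 rose and none fell on day 7, where 24.9% of all genes rose and 26.2% fell. Taldo1 and Tkt, of the branch of the pentose phosphate pathway that rearranges sugars, rose by 1.69 ± 0.16 and 1.42 ± 0.14 log2 units. Idh1 fell by 0.48 ± 0.09 on day 3 and rose by 0.26 ± 0.08 on day 7, and both calls were lost when any 1 library of day 3 was left out. Me1, a malic enzyme gene, had a value of 0.26 ± 0.16 and was not called.

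Of 8 genes of haem and iron handling, 7 rose and none fell on day 7, where 24.9% of all genes rose and 26.2% fell. Fth1 and Ftl1, the genes of the ferritin chains that store iron, rose by 2.90 ± 0.32 log2 units (6293 ± 798 against 765 ± 448 CPM, adjusted p = 0.000677, edgeR) and 1.82 ± 0.23. Blvrb and Blvra, which encode biliverdin reductases that act after haem oxygenase, rose by 1.62 ± 0.15 and 0.48 ± 0.11, and Slc48a1, a haem transporter gene, by 1.67 ± 0.21. Slc40a1, the gene of the iron exporter ferroportin, turned as Hmox1 did: it fell by 1.44 ± 0.35 on day 3 (4.78 ± 0.734 against 13.3 ± 0.807 CPM) and rose by 1.08 ± 0.33 on day 7 (33.1 ± 2.49 against 14.1 ± 9.02 CPM). Both calls of Slc40a1 were lost when PCL-S day 7 was left out (-1.43 and 0.97).

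Of 14 genes of quinone, carbonyl and drug metabolism, 10 rose and 1 fell on day 7, as did 24.9% and 26.2% of all genes. Akr1b8, an aldo-keto reductase gene, was at 7.37 CPM in PCL-O, 2108 in PCL-S, 119 in PCL-E and 1910 in PCL-SE, a log2 fold change of 5.23 ± 1.01 (adjusted p = 0.00534, edgeR). Akr7a3, of the same superfamily, was at 6.56 ± 1.21 against 0.275 ± 0.390 CPM, and Osgin1, known in human cells as an oxidative stress gene, rose by 3.76 ± 0.30. Ugt1a7c, a glucuronosyltransferase gene, rose on both days, by 1.39 ± 0.31 and 1.44 ± 0.31. Its day 3 call was lost when any 1 library of day 3 was left out (1.08 to 1.68). Aldh1a1 was called lower at 0.133 ± 0.113 against 0.679 ± 0.360 CPM, and the call was lost with total-count scaling. Ferritin, transferase, aldo-keto reductase and Ugt1a genes have near-identical relatives, between which reads may be split, so their values are uncertain.

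**Figure D4:**
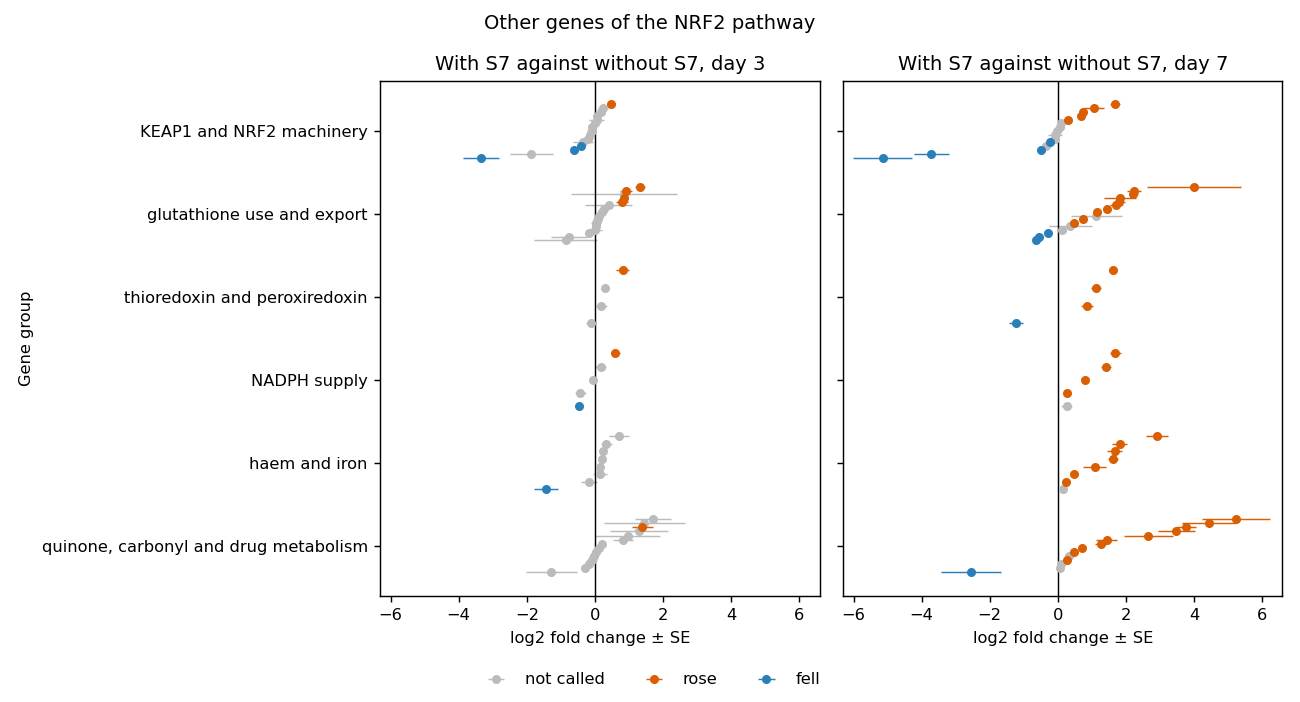
Log2 fold change ± SE for S7 on day 3 and day 7 of the 62 tested genes of 6 lists, 1 point per gene, coloured by the call at an adjusted p under 0.05. More points are called on day 7 (39 rose, 9 fell) than on day 3 (8 rose, 5 fell), and the leftmost points, Nfe2l3 and Bach2, are genes near the counting floor.

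The S7 effect differed between the days for 30 of the 62 genes, larger on day 7 for 27 and smaller or lower for 3 (Gstm2, Abcc3 and Txnip), where 28.7% of all genes were called, 13.2% upwards and 15.5% downwards. With single libraries left out the number ran from 12, without PCL-SE day 3, to 39, without PCL-E day 7. Between the days without S7, 0 of the 62 genes were called (1.61% of all genes). There, 17 of the 62 and 2514 of the 15942 genes tested had an unadjusted p under 0.05 by edgeR. DESeq2 called 5 of the 62 and 827 of all genes. With S7, 36 rose and 7 fell from day 3 to day 7, where 50.7% of all genes were called, 24.4% rising and 26.4% falling. For E7, 0 of the 62 were called (0% of all genes). An unadjusted p under 0.05 was found for 3 of the 62 and 589 of all genes by edgeR, and DESeq2 called 0 of the 62 and 1 of all genes. In PCL-E against PCL-O on day 7, 6 of the 62 were 2-fold or more higher and none lower, where 0.715% of all genes were higher: Akr1b8 (log2 ratio 3.62), Ptgr1 (2.24), Fth1 (1.17), Slc40a1 (1.13), Aldh3a1 (1.09) and Ugt1a7c (1.02).

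Nqo1, Aldh3a1 and Ugt1a genes are also known targets of the aryl hydrocarbon receptor, and values of that receptor's genes are given beside them. Cyp1a1, its standard target, was at 0.759 CPM in PCL-O, 34.0 in PCL-S, 49.3 in PCL-E and 31.9 in PCL-SE on day 7. On day 3 Cyp1a1 was at 5.45 CPM in PCL-O, 0.244 in PCL-S, 4.06 in PCL-E and 0.0587 in PCL-SE. Like Hmox1 and Nqo1 it was low with S7 on day 3 and high in the S7 arms on day 7, but PCL-E was the highest library, as it was for Cyp1b1 (1327 CPM, against 493 to 730 in the other 3 arms). Of 6 receptor pathway genes, Ahrr, Tiparp and Arnt rose and Ahr fell with S7 on day 7, where 51% of all genes were called. Ahr also fell with S7 on day 3, where 14% were called. In PCL-E, Cyp1a1, Cyp1b1, Ahrr and Tiparp were 2-fold or more higher than in PCL-O on day 7, as were 0.715% of all genes. Their part in the levels of Nqo1 was not tested.

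Slc7a11 is also a known target of ATF4, the factor of the amino acid response. Of 10 genes of that response, 3 rose with S7 on day 7 (Ddit3, Atf3 and Psat1) and 4 fell (Slc7a5, Chac1, Sesn2 and Asns), in a contrast that called 24.9% of all genes as rising and 26.2% as falling. In CPM, the arms with and without S7 overlapped on day 7 for Chac1 and Asns. Atf4 itself had a log2 value of -0.02 ± 0.11, at 303 CPM in PCL-O, 415 in PCL-S, 405 in PCL-E and 396 in PCL-SE. Col1a1, which makes up nearly all of the osteoblast marker sum, was at 5466 ± 273 CPM with S7 against 20053 ± 6655 without on day 7, in the same libraries in which the NRF2 targets were highest. Its log2 fold change there was -2.09 ± 0.20, and on day 3 it was at 31171 ± 1716 against 19655 ± 1056 CPM. The part of Col1a1 in the CPM of the NRF2 targets was not tested.

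The 8 genes differed in how alike their profiles were. The likeness was measured over the 8 libraries as the root mean square difference of log2 levels after each gene's mean was removed. Nfe2l2 and Keap1 were the closest pair of the 8 at 0.12 log2 units, followed by Nfe2l2 with Gclm at 0.22 and Gclc with Gclm at 0.23. The measure is small for genes of small range, here 0.78 log2 units for Nfe2l2 and 0.85 for Keap1. Genes outside the 8 lay nearer than that pair, the nearest at 0.03 from Nfe2l2 and at 0.05 from Keap1. Among 7977 genes compared, the closest to Hmox1 were Cited1 (0.43), Nqo1 (0.48) and Arhgap22 (0.50). The closest to Nqo1 were Plin2, which encodes a lipid droplet protein (0.32), Cpt1a, which encodes the enzyme that admits fatty acids to mitochondria (0.32), and the aldo-keto reductase gene Akr1b1 (0.32). Plin2 was at 19.7 to 24.9 CPM in all libraries of day 3 and in PCL-O on day 7, and on day 7 it was at 151 CPM in PCL-S, 147 in PCL-SE and 52.7 with E7 alone. Cpt1a was lowest in PCL-O on day 7, at 14.8 CPM, and reached 254 CPM in PCL-S of that day and 269 in PCL-SE.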

How the data were processed

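Messenger RNA was profiled in 8 libraries of bone marrow mesenchymal stem cells, 1 per scaffold extract and day. With 1 library each, arms were pooled by S7. Each p-value sets a difference against the departure of the libraries from the fitted terms, not against the spread of repeated cultures. The deposited counts are whole numbers of reads per gene, per the file headers, with 32950326 to 41754124 per library. FPKM, deposited for the same genes and libraries and scaled by length and total according to the headers, served only to compare levels between genes. The sources used here name no aligner or counter; mm10 comes from the submitters' processing notes, whereas the identifiers are those of the rat. In the table, 10 lines that are fragments of annotation text were left out, and 0 columns of other samples were present.

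CPM were scaled to library totals. Fold changes come from edgeR 4.0.16 (R 4.3.3) after filterByExpr and TMM, with quasi-likelihood F-tests, terms for S7, E7, day and S7 by day, which left 3 residual degrees of freedom, and a biological coefficient of variation of 0.137; p-values were Benjamini-Hochberg adjusted over 15942 genes. Log2 ratios of single libraries use TMM-scaled CPM with 2 added and have no test. All members and 62 of 63 genes of the wider list found passed the filter (Gsta3 did not). Scripts were tested on simulated data.

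Members and lists were chosen with earlier results of these data known. Named genes are the members, the machinery list, up to 3 called genes with the largest rise and fall per list, any gene of the haem, aryl hydrocarbon receptor and ATF4 lists, and the 3 genes most like a member whose log2 range was 2 or more. A single further gene picked by this rule is left out. Alternatives were DESeq2 1.42.0, its size factors, total-count scaling, no low-count filter, no E7 term, 0.5 added in place of 2 and omission of each library. Matplotlib 3.10.9, pandas 2.3.3 and Python 3.11.15 were used for tables and figures.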

Additional observations from a re-analysis of the deposited data

Results flagged for a closer look

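For 4 of the 8 genes the mean CPM with S7 less that without S7 changed sign between the days, with both S7 arms below both other arms on day 3 and above them on day 7; the difference was not tested for these genes. Of all genes tested, 12.4% showed the same non-overlapping turn. It was -82.5 CPM on day 3 and 2403 CPM on day 7 for Hmox1. For Nqo1 it was -121 and 2198 CPM, for Txnrd1 -37.6 and 582 CPM, and for Slc7a11 -7.87 and 13.3 CPM. With TMM scaling, Slc7a11 on day 7 lay higher in PCL-E than in PCL-S (log2 ratios to PCL-O of 0.64 and 0.61). Among the 62 other pathway genes tested, the S7 effect differed between the days by edgeR's quasi-likelihood interaction test for 27 genes upwards and 3 downwards, where 28.7% of all genes were called, 13.2% upwards and 15.5% downwards. With single libraries left out, 12 to 39 of the 62 were called.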

How the results depend on the processing

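No paired analysis was possible because each arm and day has 1 library and the labels give no replicate numbers. No gene of the wider list that is named above as called for S7 on day 3 or day 7 changed direction under an alternative. The members that were 2-fold or more apart depended on the processing in some comparisons. With total-count scaling they also included Keap1 (log2 ratio 1.02) and Gclm (1.20) from day 3 to day 7 in PCL-S. In PCL-SE they then included Gclm (1.26) between the days, and Slc7a11 (1.20) against PCL-O on day 7. From day 3 to day 7 in PCL-O the number was 1 (Slc7a11) in place of 0 with 0.5 added to the CPM. For S7 on day 3 the log2 values of Keap1 (-0.07 to 0.03) and Gclm (-0.06 to 0.23) took both signs when single libraries were left out, as did the change of Slc7a11 between the days with S7 (-0.05 to 0.48 over all settings). With each library left out in turn, the wider list had 2 to 23 calls for S7 on day 3, 32 to 48 for S7 on day 7, 12 to 39 for their difference, 29 to 47 between the days with S7, 0 to 14 between the days without S7 and 0 to 0 for E7. Over all genes these omissions gave 257 to 3847, 5003 to 8326, 1537 to 6219, 4479 to 9206, 0 to 1347 and 0 to 0 calls. DESeq2 called 827 genes between the days without S7, where edgeR called 256, and 5 of the wider list, where edgeR called 0, and it called 1 gene for E7. Total-count scaling turned the majority of calls over all genes from falling to rising: it gave 5642 rising and 3010 falling for S7 on day 7 in place of 3965 and 4172, 3721 genes rising and 1750 falling for the difference between the days in place of 2105 and 2473, and 6255 and 2685 between the days with S7 in place of 3889 and 4201. The cause of these shifts was not tested. An omission leaves a pooled pair with 1 library, which is then assumed to vary like the others. Counting error was small for the members; without repeated cultures, the spread between cultures is unknown.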

Other observations

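Antioxidant enzyme genes that are mainly under other regulators also differed with S7 on day 7. Of 20 such genes, 13 rose and 3 fell (edgeR quasi-likelihood test, Benjamini-Hochberg adjusted p under 0.05). That contrast called 51% of all genes, 24.9% rising and 26.2% falling. The genes named here were chosen after their values were seen. Cat, the catalase gene, was at 425 ± 10.5 CPM with S7 against 110 ± 35.5 without (mean ± SD, n = 2) and rose by 1.75 ± 0.15 log2 units (SE). Gpx4, whose product reduces lipid peroxides, rose by 1.35 ± 0.13, the peroxiredoxin gene Prdx5 by 1.19 ± 0.08 and the superoxide dismutase gene Sod1 by 1.04 ± 0.09. The extracellular superoxide dismutase gene Sod3 fell by 0.64 ± 0.09, and the sestrin genes Sesn2 and Sesn3 fell by 0.40 ± 0.09 and 0.36 ± 0.09. On day 3, 3 of the 20 rose and 2 fell, where 14% of all genes were called, 7.1% rising and 6.87% falling. Gpx3 (2.72 ± 0.17), Sesn1 (1.43 ± 0.10) and Txnrd2 (0.53 ± 0.13) were called higher and Txnrd3 (-1.07 ± 0.13) and Sod3 (-0.40 ± 0.09) lower.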
